A study of Bos taurus with 6 samples.

Results

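The 31853 CpGs described here were those on the cattle autosomes that were read often enough on both DNA strands, in control and in butyrate-treated cells, for the strands to be compared. A CpG is a palindrome, so that each site holds 1 cytosine on the plus strand and 1 on the minus strand, and the deposited files counted them in adjacent rows. The strand was inferred from this order, the lower position being taken as plus, and was not checked against a genome sequence. A CpG was a member when each of its 2 cytosines had 4 or more reads summed over the 3 control libraries and 4 or more over the 3 butyrate libraries, with under 60 reads over all 6 libraries. Members were 0.243% of 13130582 autosomal pairs of cytosines. The methylation level itself took no part in the choice.

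The cells were rumen epithelial primary cells (REPC), which are cultured cells of the rumen wall. All cells came from 1 Holstein bull calf, 2 weeks old and fed milk replacer. The control group held 3 libraries of cells without added butyrate, and the butyrate group held 3 libraries of cells given 5 mM butyrate over 24 h. The study's methods call the 3 libraries of a group biological replicates, and the labels do not say what separated them. Since all came from the same calf, p-values of tests over libraries measure the spread between these libraries and not the spread between animals. Tests of single CpGs take the read as the unit, and their p-values do not measure the spread between libraries.

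In mammalian cells most CpGs are methylated on both strands. When DNA is copied, the new strand starts without methyl groups, UHRF1 binds the half-methylated site and DNMT1 adds the mark to the new strand, which keeps the strands alike. Butyrate is a product of microbial fermentation in the rumen and inhibits histone deacetylases. The comparison of strands asked how far the 2 cytosines of a CpG had unequal levels in these cells, and whether that differed after butyrate. Bisulfite converts unmethylated cytosine, and reads from the plus and the minus strand come from different molecules, so that only the average over cells is compared and not the state of the strands of 1 molecule. A position where the animal carries T in place of C is also read as unmethylated on that strand, and whether members hold such bases was not tested.

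Members were deeply read for these libraries. A member had a median of 39 reads over all 6 libraries, from 16 to 59, whereas an autosomal pair had a median of 5. The median reads of a member were 9 on the plus strand and 8 on the minus strand in each group. The plus strand held 50.4% to 50.8% of the members' reads in every library, and the total per library was 174913 to 231242 reads. Members were unevenly spread: 7784 of them, 24.4%, lay in 10 of the 1202 bins of 1 Mb that held any. The richest bin, chr27:28000001-29000000 (assembly UMD3.1), held 1814 members. Members had a median of 22 other CpG cytosines within 100 bp against 7 for all autosomal pairs, and 86.8% had another member within 100 bp. Such counts, here and below, hold only cytosines read in any of the 6 libraries. They therefore reflect depth as well as CpG density. Reads that span several CpGs are counted at each, so neighbouring members share reads and are not independent.

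Both strands carried nearly the same average level in every library. Over all members, the plus strand was methylated in 64.2%, 64.5% and 64.2% of reads in control 1, 2 and 3 and the minus strand in 64.6%, 64.7% and 64.6%. In butyrate 1, 2 and 3 the plus strand stood at 65.1%, 64.9% and 65.2% and the minus strand at 65.7%, 65.3% and 65.8%. The minus strand was thus slightly higher in each of the 6 libraries when reads were pooled, with plus minus minus at -0.602 to -0.166 points. When every member weighed the same, the mean of plus minus minus had no common sign: it was -0.196, 0.185 and 0.314 points in control 1, 2 and 3 and -0.178, -0.128 and -0.234 points in butyrate 1, 2 and 3, with standard errors over members of 0.217 to 0.253 points. These standard errors take members as independent, which they are not, since neighbouring members share reads.

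On both strands, every butyrate library had a higher level over the members than every control. On the plus strand, control libraries had a level of 64.3% ± 0.172 (SD, n = 3) and butyrate libraries one of 65.1% ± 0.178 (SD, n = 3), which is 0.756 points more (exact permutation test, two-sided, p = 0.1). On the minus strand, control stood at 64.6% ± 0.0697 (SD, n = 3) and butyrate at 65.6% ± 0.272 (SD, n = 3), which is 1.01 points more (exact permutation test, two-sided, p = 0.1). With 3 libraries in each group the p of this test cannot fall under 0.1, so it cannot pass a threshold of 0.05. For members with no other CpG cytosine within 10 bp the plus strand differed by 0.763 points and the groups were no longer apart (exact permutation p = 0.2). Butyrate 1 and 3 were sequenced on lane 5, and butyrate 2 and all controls on lane 6. Within lane 6, butyrate 2 lay above the control mean by 0.560 points on the plus strand and 0.704 points on the minus strand. For the other autosomal pairs the difference between the groups was 0.613 points over both strands, against 0.881 points for the members. Within lane 6 these differences were 0.534 and 0.630 points, so that the excess of the members went from 0.268 to 0.0964 points.

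The mean strand difference over members overlapped between the groups. Control libraries had 0.101 ± 0.265 points (SD, n = 3) and butyrate libraries -0.180 ± 0.0531 points (SD, n = 3), and control 1 fell among the butyrate values (exact permutation test, two-sided, p = 0.3). Butyrate minus control was -0.281 points, and 0.194 points with a minimum of 6 reads in place of 4. With a minimum of 3 reads it was -0.382 points and p reached 0.1, its smallest value in an exact permutation test, as it did without an upper limit (-0.0930 points), with each row under 60 reads (-0.219 points) and without control 1 (-0.429 points). Weighted by reads, control had a plus minus minus of -0.283 ± 0.102 points (SD, n = 3) and butyrate one of -0.537 ± 0.0952 points (SD, n = 3), with no overlap (exact permutation test, two-sided, p = 0.1), and butyrate 2 minus the control mean was -0.145 points within lane 6.

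Single members nevertheless differed between strands by more than binomial sampling allows, and did so alike in both groups. Sampling was computed for each pair by letting its methylated reads fall on its 2 strands at random, and the observed squared difference was divided by the value this gives, summed over members. A ratio of 1 is sampling alone. For the strands of the same library the ratio was 1.036, 1.044 and 1.047 in control 1, 2 and 3 and 1.044, 1.025 and 1.034 in butyrate 1, 2 and 3. All 6 libraries thus lay above 1, while the groups, at 1.042 ± 0.00533 and 1.034 ± 0.00945 (SD, n = 3), overlapped (exact permutation test, two-sided, p = 0.2). Butyrate minus control was -0.00805, and it lay between -0.0129, without butyrate 1, and -0.00348, without butyrate 2. It was -0.0172 in lane 6, -0.00218 without an upper read limit, -0.0159 where each strand had 2 or more reads in the library, and -0.0136 for members with no other CpG cytosine within 10 bp, where the groups were apart (exact permutation p = 0.1).

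The same comparison between libraries showed where the excess lay. With the plus strand taken from one library and the minus strand from another, the ratio was 1.021 to 1.058 over 30 combinations, with a median of 1.041. With the same strand taken from both libraries it was 0.977 to 1.018 over 30 combinations, with a median of 0.999. Reads of one strand from 2 libraries therefore differed about as much as sampling gives, and every combination of opposite strands lay above all combinations of the same strand. This held within control, within butyrate and between the groups. The combinations share libraries and members and are not independent.

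**Figure D1:**
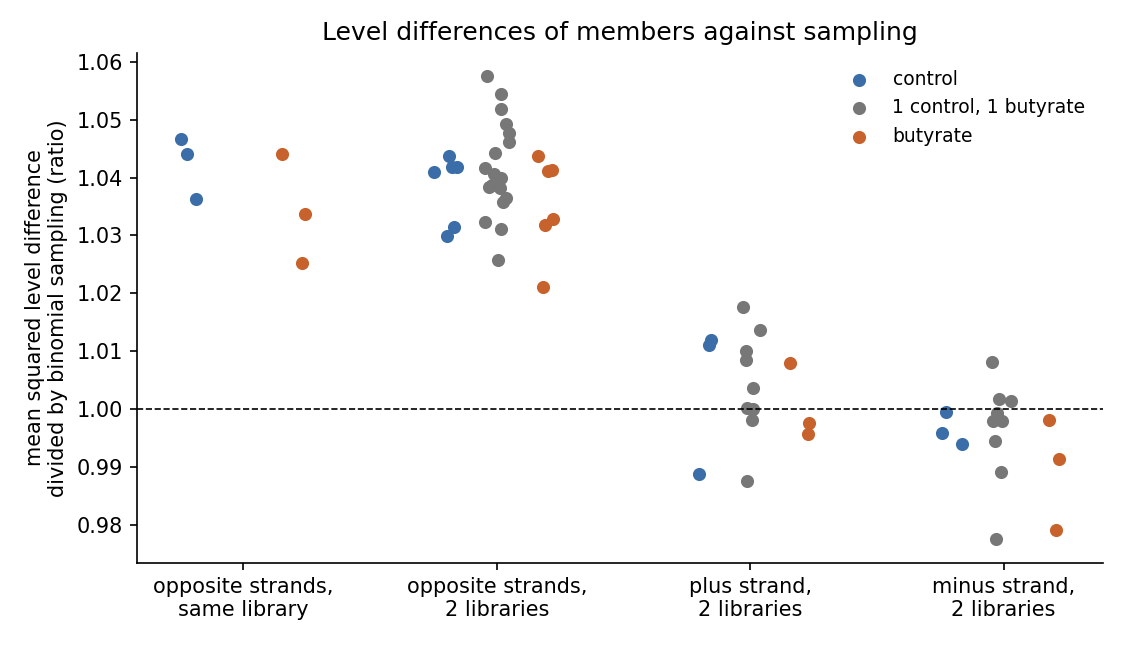
Ratio of the mean squared level difference to that of binomial sampling (vertical axis, no unit, dashed line at 1), with 1 point per library or combination of 2 libraries and colours for control, butyrate and 1 library of each. Opposite strands lie at 1.021 to 1.058, whether from 1 library or from 2, and the same strand of 2 libraries lies at 0.977 to 1.018.

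With the 3 libraries of a group summed, less of the difference was sampling and the ratio was larger. In control the mean squared strand difference was 506 squared points against 438 for sampling, a ratio of 1.157, and in butyrate 492 against 430, a ratio of 1.144. The size beyond sampling, as a root mean square, came to 8.28 points for control and 7.86 points for butyrate. By contrast, the plus strand of control against that of butyrate gave a ratio of 1.006, the minus strand 0.996 and both strands summed 1.003. The change of the strand difference from control to butyrate had a ratio of 0.992. For this ratio alone, sampling was computed from the level and reads of each strand in each group, so it is not the same statistic as the others. At this depth, then, the members showed a difference between strands and no detectable difference between groups at single CpGs. The summed ratio rises with depth by construction and with the number of libraries summed: with 1 control library left out the control ratio was 1.092 to 1.104, and with 1 butyrate library left out the butyrate ratio was 1.082 to 1.086.

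The part of the strand difference that libraries share can be estimated without a bias from sampling error, though each estimate still varies. For 2 different libraries, the strand difference of a member in one was multiplied by its strand difference in the other and the product averaged over members. Only members read on both strands in both libraries entered, which were 23704 to 26856 of the 31853. Sampling errors of separate libraries average to 0 in this product, and copies of a molecule within a library do not enter it. The mean product was 75.9, 81.7 and 56.2 squared points for the 3 combinations of control libraries and 65.5, 71.9 and 73.4 for those of butyrate libraries. For the 9 combinations of a control with a butyrate library it was 66.7 to 85.1.

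All 15 combinations were above 0, and those between the groups, at 73.1 ± 5.82 squared points (SD over combinations), were no lower than those within control, at 71.3 ± 13.4, or within butyrate, at 70.2 ± 4.22. Butyrate and control differed by -1.02 squared points (exact permutation test over libraries, two-sided, p = 0.8). As a root mean square the shared strand difference was 8.49 points over all combinations, from 7.49 to 9.23. The difference between the groups had no stable sign: with 1 library left out it lay between -11.5 and 14.1 squared points, the latter without control 1.

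The spread of single members can also be seen across the groups, which share no library. Across the 31853 members the strand difference in control and that in butyrate had a Pearson r of 0.145, given as a description, since members share reads and their depth is low. Of the 25767 members with a difference in both groups, 54.6% had the same sign.

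Large strand differences were more frequent than sampling gives. A difference of 50 points or more was seen in 1344 members in control, where sampling gives 1001, and in 1321 in butyrate, where it gives 981, a ratio of 1.34 and 1.35. At 75 points or more there were 180 members in control against 79.4 and 164 in butyrate against 74.7. With all 6 libraries summed, 340 members had 50 points or more against 82.2, and 34 had 75 points or more against 0.859. Observed over sampling was thus 2.27 in control and 2.19 in butyrate at 75 points or more, above the values at 50 points, while the number of members in excess was smaller.

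**Figure D2:**
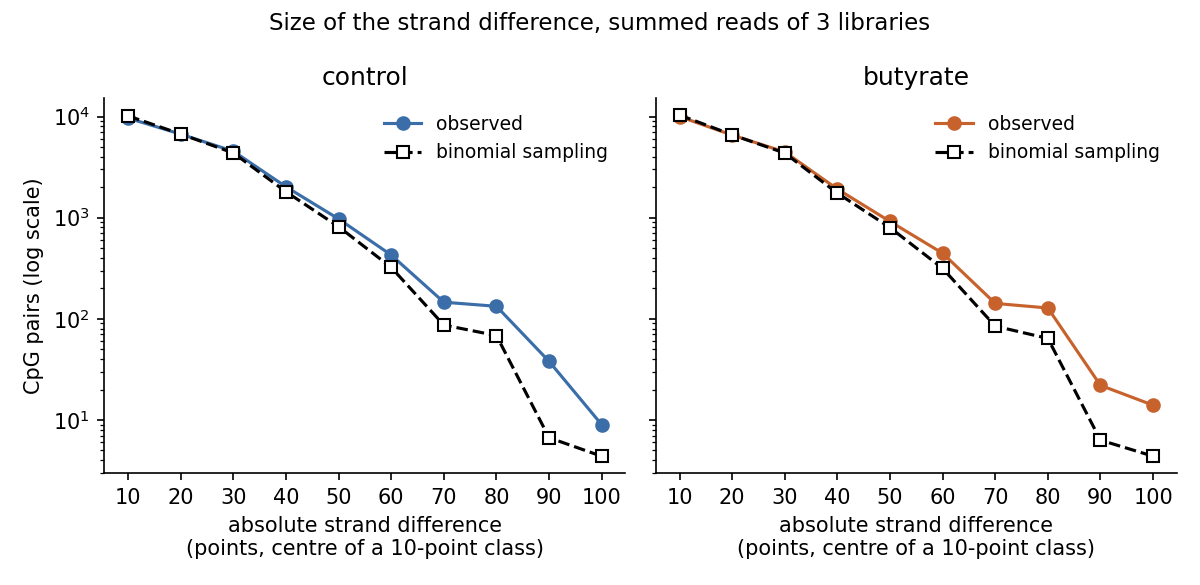
Number of members (vertical axis, log scale) by absolute strand difference in percentage points, in classes of 10 points, for the summed control and butyrate libraries, with the number from binomial sampling as open squares. Observed members are fewer than sampling gives in the class of 5 to 15 points (9638 against 10136 in control) and more numerous from 25 points up, with 1344 against 1001 in control and 1321 against 981 in butyrate at 50 points or more.

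Fully opposite strands were rare. A level of 80% or more on one strand and 20% or less on the other was found in 184 members in control and 147 in butyrate. With the plus strand high there were 94 in control and 76 in butyrate, where sampling gives 38.6 and 38.2, and with the minus strand high 90 and 71, where it gives 39.0 and 36.8. In both groups it was found in 19 members, where sampling in the groups separately gives 0.298. Of these 19, 5 had the high level on the plus strand and 14 on the minus strand, and 0 members had opposite orders in the groups, where sampling gives 0.249. For scale, 4607 members had both strands at 80% or more in both groups, and 1563 had both at 20% or less.

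Each pair was then tested for a strand difference with Fisher's exact test and Benjamini-Hochberg adjustment over all 112206 pairs past the read minimum on all sequences. With all 6 libraries summed, 139 members had an adjusted value (q) under 0.05, which is 0.436% of the members, against 1.38% of all pairs tested. Of the 139, 65 were higher on the plus strand, where the background was 0.709%, and 74 on the minus strand, where it was 0.674%. The share called rose with depth, from 14 of 8363 members with 16 to 29 reads to 70 of 11254 with 45 to 59 reads, and was 1.81% of the 64059 autosomal pairs with 60 or more reads. Leaving out any 1 library left 85 to 95 members called, lane 6 alone 52, and a likelihood-ratio test on the same reads called 243. For these 3 alternatives the share called over all pairs tested was not computed, so the counts say nothing particular about members.

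In control alone 21 members were called, against a background of 0.47%, and in butyrate alone 14, against 0.493%. Of the 21, 10 were higher on the plus strand and 11 on the minus strand, and of the 14, 3 were higher on the plus strand and 11 on the minus strand. These counts depend on the test and on depth. A likelihood-ratio test on the same reads, whose chi-square is approximate at these counts, called 78 members in control and 56 in butyrate. With fewer libraries they fell: without control 1, 2 or 3 they were 2, 1 and 3, and without any of the butyrate libraries 1. The share over all pairs tested was not computed for the likelihood-ratio test, for fewer libraries or for the directions within a group. Those counts therefore cannot be read as particular to members. An unadjusted p under 0.05 was reached by 838 members in control and 845 in butyrate, which is 2.63% and 2.65% of the members, against 5854 and 5776 of all 112206 pairs tested.

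The reads of the other group, which had not chosen these members, went the same way. Of the 21 members called in control, 20 had a strand difference of the same direction in butyrate. With the direction in control counted as positive, the median was 64.3 points in butyrate against 88.5 points in control. The exception had -18.75 points, which means the direction opposite to control. All 14 members called in butyrate had the same direction in control, with a median of 68.7 points against 82.6 points, and 4 members were called in both. Among members with an unadjusted p under 0.05 in control and a difference in butyrate, 557 of 803, 69.4%, had the same direction in butyrate, against 54.1% of the other members. The reverse choice, in butyrate, gave 542 of 817, 66.3%, against 54.2%.

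The 139 called members lay on all 29 autosomes and in 93 bins of 1 Mb, and 34 of them, 24.5%, were in the 10 richest bins that hold 24.4% of all members. Their median level over both strands was 44.7% against 70.6% for the members not called, which the call itself favours, since a difference of this size needs an intermediate level. The called members held 25.4% of the mean product of strand differences between control and butyrate. Without them the shared strand difference was 7.27 points, above 0 in all 15 combinations of libraries, so most of it lay in members that were not called. The call used the same reads and depends on depth, so the size of both parts follows in part from that choice.

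No member was called for a change with butyrate. With the strands summed, 0 members had a q under 0.05 in Fisher's exact test between the groups, where the background was 0%, and 832 had an unadjusted p under 0.05, 2.61% of the members, against 3838 of all 112206 pairs. For the difference of the strand difference between groups, a likelihood-ratio test of the strand by group term in a logistic model called 0 members, against a background of 0%, with a smallest q of 0.675 and 2167 members at an unadjusted p under 0.05, 6.80% of the members, against 7413 of all 112206 pairs. The chi-square of that test is approximate at these counts. A replicate-stratified Cochran-Mantel-Haenszel test of the group difference also called 0 members.

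Among the called members, 4 pairs per direction, those of lowest p and over 500 bp apart with the same sign in both groups, are described as examples. That choice fixes their large differences and their like direction. The examples on chromosomes 5 and 7 lay in bins of 553 and 497 members, which are among the 10 richest. Coordinates are those of the files (assembly UMD3.1), the lower one being taken as the plus-strand cytosine. Genes and bases around them are not analysed here. The pair at chr12:65201468-65201469 was methylated on the plus strand in 3 of 4, 1 of 2 and 4 of 5 reads in control 1, 2 and 3, and in 5 of 5, 4 of 4 and 5 of 7 reads in butyrate 1, 2 and 3. Its minus strand was methylated in 0 of 5, 1 of 6 and 0 of 5 reads in control and in 1 of 8, 0 of 3 and 0 of 3 reads in butyrate. The plus strand was higher in all 6 libraries, with 74.8 points over all reads (Fisher's exact q = 1.62e-06). The nearest CpGs read on both strands, 4 bp before and 3 bp after it, had strand differences of 9.26 and 7.95 points.

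The pair at chr2:124784779-124784780 was methylated on the plus strand in 4 of 5, 1 of 1 and 6 of 6 reads in control 1, 2 and 3, and in 3 of 3 and 1 of 1 reads in butyrate 1 and 3, with no read in butyrate 2. Its minus strand had 0 methylated reads of 7 in control and 0 of 11 in butyrate. The strands were thus separated in each of the 5 libraries that read both, by 93.75 points over all reads (Fisher's exact q = 2.73e-06). The CpGs 9 bp before and 13 bp after it had strand differences of 3.30 and 26.7 points.

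In the other direction, the pair at chr7:105852379-105852380 was methylated on the minus strand in 3 of 3, 6 of 6 and 3 of 3 reads in control 1, 2 and 3, and in 10 of 10, 8 of 8 and 4 of 4 reads in butyrate 1, 2 and 3. Its plus strand was methylated in 0 of 2, 0 of 3 and 1 of 4 reads in control and in 0 of 2, 0 of 1 and 0 of 2 reads in butyrate. Every minus-strand read was methylated and only 1 plus-strand read was, a strand difference of -92.9 points (Fisher's exact q = 3.41e-08). The CpG 10 bp after it had 84.6% on the plus and 83.9% on the minus strand.

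The pair at chr16:23610230-23610231 was methylated on the minus strand in 1 of 1, 4 of 4 and 8 of 8 reads in control 1, 2 and 3, and in 3 of 3, 1 of 1 and 5 of 5 reads in butyrate 1, 2 and 3. Its plus strand was methylated in 0 of 3, 1 of 3 and 0 of 1 reads in control and in 0 of 2, 0 of 5 and 0 of 2 reads in butyrate. The minus strand was higher in all 6 libraries, with -93.75 points over all reads (Fisher's exact q = 3.92e-07). The CpGs 16 bp before and 19 bp after it had strand differences of 16.7 and 15.4 points, in the opposite direction, and those 22 bp before and 29 bp after it had -23.5 and -21.4 points.

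The remaining examples had the same shape. The pairs at chr1:144079548-144079549 and chr5:114225545-114225546 were higher on the plus strand by 90.9 and 77.4 points in control and by 75 and 80 points in butyrate. The pairs at chr20:72038597-72038598 and chr11:65329492-65329493 were higher on the minus strand, with differences of -81.8 and -83.3 points in control and -90 and -64.3 points in butyrate. The chromosome 20 pair had 0 other CpG cytosines read within 100 bp. At the chromosome 5 pair the CpGs 7 bp before and 14 bp after it had strand differences of 48.9 and 5.16 points. Those 9 bp before and 20 bp after the chromosome 1 pair had 29.8 and -8.33 points. Those 7 bp before and 53 bp after the chromosome 11 pair had 4.90 and -9.27 points.

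**Figure D3:**
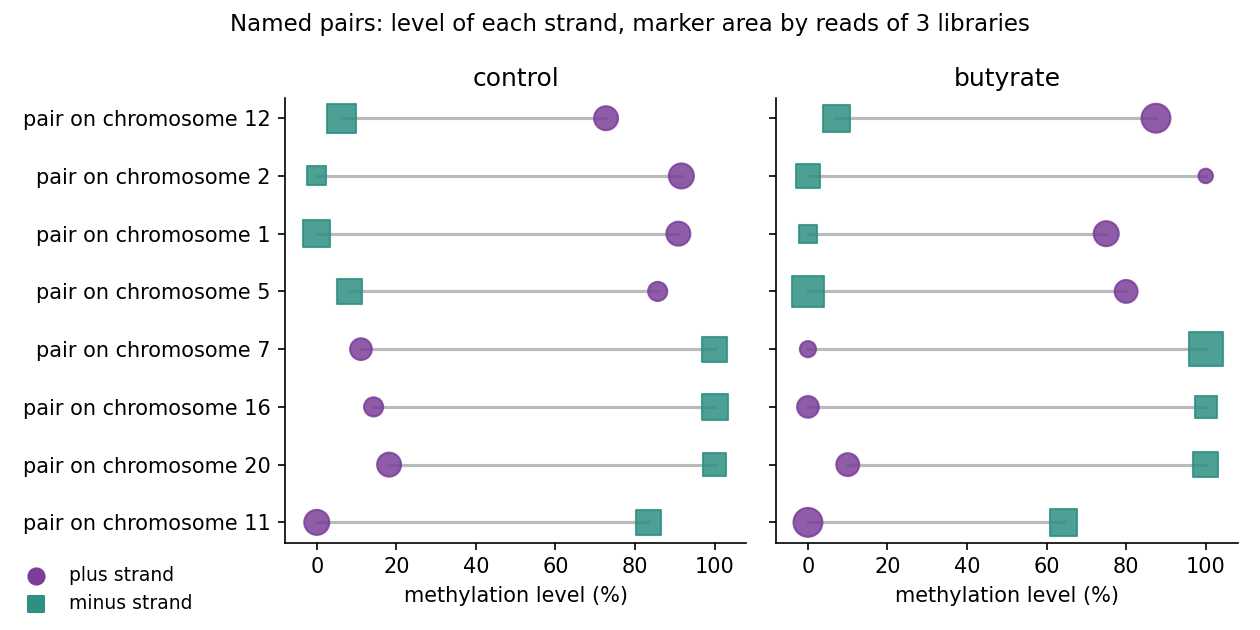
Methylation level (horizontal axis, percent) of the plus strand (circles) and the minus strand (squares) of the 8 example pairs, with the 3 control libraries summed on the left and the 3 butyrate libraries on the right, and marker area in proportion to reads. The upper 4 pairs are high on the plus strand and the lower 4 on the minus strand, in both groups, as the choice of pairs required.

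The strand difference of a member was shared only in small part by its neighbours. When the strand difference of a member in control was multiplied by that of another member in butyrate, the mean product was 17.7 squared points at 2 to 10 bp and 13.5 at 11 to 25 bp, against 72.4 for a member with itself. It was 4.43 at 26 to 50 bp, 0.145 at 51 to 100 bp, and -2.09, 4.06 and 1.08 in the next 3 classes, which end at 200, 500 and 2000 bp. Members within 25 bp of each other therefore shared 24.4% and 18.6% of the value of the same pair, and the product at the longer distances was between -2.09 and 4.43 squared points, without a steady fall. Without the 10 richest bins it was 17.5 and 13.6 at those short distances. A read covers neighbouring members together, and the libraries in the product are different ones.

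**Figure D4:**
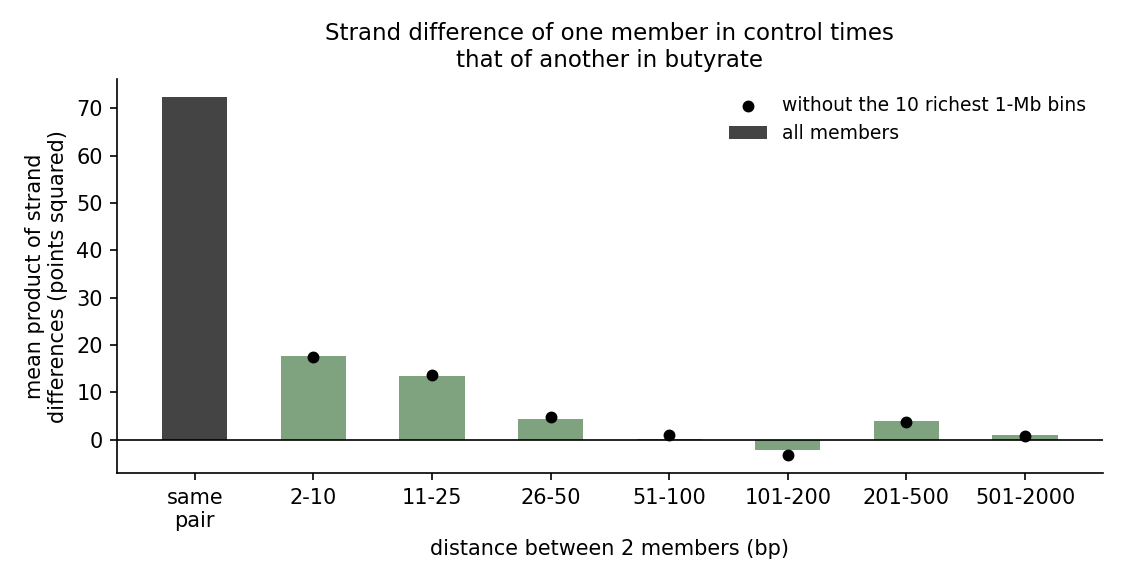
Mean product of the strand difference of one member in control and of another in butyrate (vertical axis, squared percentage points) by the distance between them in bp, with the same pair at the left and points for members outside the 10 richest bins. The bar falls from 72.4 for the same pair to 17.7 at 2 to 10 bp and 0.145 at 51 to 100 bp.

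By level, the shared strand difference in points was widest at intermediate methylation, where the scale also leaves room for the largest differences. Members were classed by their level in the other group, so that the class came from libraries outside the value. At 20% to 80% it reached 10.3 points for control and 9.96 points for butyrate, under 20% it was 7.97 and 6.71 points, and at 80% or more it was 4.40 and 5.33 points. As a ratio to sampling of the summed reads the lowest class came first in control but not in butyrate: 1.22 in control and 1.14 in butyrate under 20%, 1.18 and 1.16 at 20% to 80%, and 1.08 and 1.09 at 80% or more. The ratio per library did not separate the groups in any class (exact permutation test, two-sided, p = 0.3, 0.7 and 0.3 from the lowest class up).

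By depth, values were alike on both sides of the upper limit of 60 reads. The shared strand difference was 8.13 points for members with 16 to 29 reads, 9.17 with 30 to 44 and 7.96 with 45 to 59, and for autosomal pairs past the minimum it was 8.08 points at 60 to 89 reads and 7.75 points in the deepest class, with a median of 413 reads. Just inside and just outside the upper limit it was 8.04 points at 50 to 59 reads and 8.20 at 60 to 69. Pairs below the minimum had lower values: 6.20 points where the fewest reads of a row and group were 3, 4.84 where they were 2 and 3.99 where they were 1, against 8.65 points for members where they were 4. Each product holds only pairs read on both strands in both libraries, and how many pairs of each depth class entered was not counted. Those that entered from the 3066338 pairs with a fewest count of 1 shared a smaller strand difference, although all 15 combinations of libraries were above 0 there too. Reads, CpG cytosines read nearby and position differ between members and these pairs, and their part in the lower value was not tested.

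**Figure D5:**
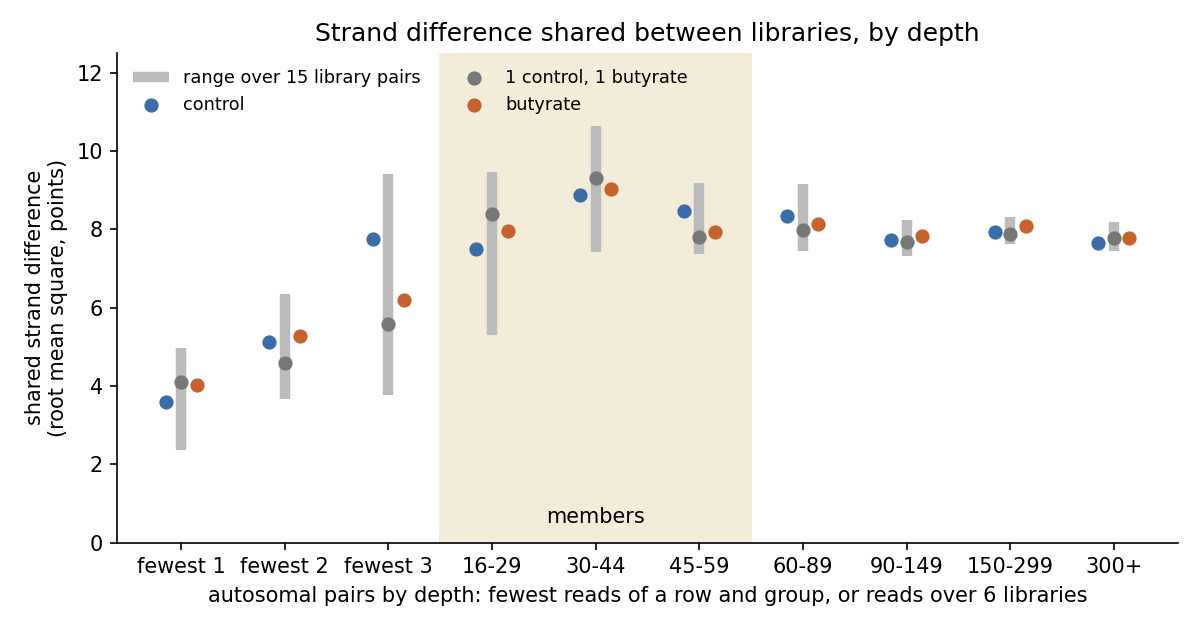
Strand difference shared between libraries (vertical axis, root mean square, percentage points) for autosomal pairs by depth, with points for control, butyrate and 1 library of each and grey bars for the range over 15 combinations of libraries; the shaded classes are the members. Values lie near 8 points from the members up to the deepest class, with a median of 413 reads, and fall to 3.99 points over all combinations where the fewest reads were 1.

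Among the members, the shared strand difference was 8.36 points in the 10 richest bins and 8.54 outside them, and 8.44 points where no other CpG cytosine lay within 10 bp. It was 9.03 points with 10 to 19 other CpG cytosines within 100 bp and 8.20 with 20 or more. In 484 members with 0 to 3 others it was 11.8 points, where 14 of 15 combinations were above 0, and in 2402 members with 4 to 9 others it was 7.53 points, where 13 were. Where the less read strand held under 30% of the reads it was 9.42 points, and where it held 40% to 50% it was 8.03 points. The more read strand was also the more methylated one, by 0.366 to 0.859 points in all 6 libraries over 30396 members with unequal reads, and the groups were not separated (exact permutation test, two-sided, p = 0.9).

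By chromosome, the summed ratio was above 1 in both groups on 28 of 29 autosomes, from 1.02 to 1.37 in control and from 0.931 to 1.24 in butyrate. The exception was chromosome 23, with 207 members, where it was 1.02 in control and 0.931 in butyrate. The mean product between control and butyrate libraries was above 0 on 28 autosomes, chromosome 15 being the exception at -39.0 squared points with 569 members. Within a group it was below 0 on chromosome 29 in control, at -30.8 squared points, and on chromosomes 23 and 24 in butyrate, at -28.3 and -0.551. From 7 combinations of libraries on chromosome 15 to all 15 on others were above 0. The ratio was higher in butyrate on 12 of the autosomes. On the X chromosome, outside the members, 1418 pairs chosen by the same rule shared a strand difference of 8.56 points, with 14 of 15 combinations of libraries above 0.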

How the data were processed

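Whole-genome bisulfite libraries were trimmed (Trim Galore 0.4.1), mapped with bowtie2 and called with Bismark by the authors, on assembly UMD3.1 per the labels. Removal of duplicate reads is not given in the sources used here, and the labels and the study's methods differ on read length and run type. The deposited values were raw counts of methylated and unmethylated reads per CpG cytosine, with no normalization, and counts were used as they stand. The files have no header, and which column holds methylated reads was taken from the values. Rows were joined over 6 libraries, and runs of adjacent rows were split into successive pairs, with odd runs left out. A pair whose outer rows were never read could join cytosines of neighbouring CpGs. CpG density was counted in cytosines read in any library, not in pairs as had been planned. The library was the replicate, except in the tests per pair, where the unit was the read. Tests were exact permutation tests over the 10 splits of libraries, and Fisher's exact and likelihood-ratio tests per pair with Benjamini-Hochberg adjustment. Named pairs were the 4 smallest p per direction among called members of the same sign in both groups, passing over neighbours within 500 bp. Alternatives were other read limits, pairings, tests, weights, lane 6 alone and each library left out. The 2 chosen after seeing the data were a limit of 60 reads per row and the removal of the 10 richest bins. The members and lists were chosen with earlier results of these data known. Methods were tested on simulated data. Python 3.11.15, NumPy 2.4.6, SciPy 1.17.1, pandas 2.3.3, numba 0.67.0 and Matplotlib 3.10.9 were used. Ratios and tests per pair take reads as separate molecules, as copies of a molecule were not told apart.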

Additional observations from a re-analysis of the deposited data

How the results depend on the processing

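The shared strand difference was 7.68 points at a minimum of 3 reads and 8.06 points without an upper limit, against 8.49 as reported, and 8.37 to 8.58 points with 1 library left out. The ratio of the summed control reads was 1.10, 1.19, 1.14, 1.25, 1.17, 1.14, 1.18 and 1.16 with a minimum of 3 reads, a minimum of 6, under 40 reads, no upper limit, every adjacent pair of rows, no CpG within 10 bp, each row under 60 reads and without the 10 richest bins, and 1.092 to 1.104 with 1 control library left out. That of butyrate was 1.09, 1.17, 1.12, 1.25, 1.15, 1.12 and 1.17 under the first 7 of these, 1.025 in lane 6 (1 library) and 1.082 to 1.086 with 1 library left out. As given above, the summed ratio rises by construction with depth and with the number of libraries summed. Whether anything else added to these shifts was not tested. The ratio for the same strand of control and butyrate was 0.984 at a minimum of 6 reads, 0.989 in lane 6 and 0.993 to 1.012 with 1 library left out.

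The mean strand difference changed sign at a minimum of 6 reads (0.194 points, butyrate minus control), and was -0.429 to -0.175 points with 1 library left out. The mean product of butyrate minus control changed sign under 40 reads (4.28 squared points) and without an upper limit (0.218), and ranged from -11.5 to 14.1 with 1 library left out. The cause was not tested. Lane 6 gave no value, since it held 1 butyrate library. The product missed the threshold in every setting, which the exact permutation test used cannot pass with 3 against 3.

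Members called in control numbered 3 under 40 reads, 447 without an upper limit, 32 with every adjacent pair, 4 with no CpG within 10 bp, 78 by the likelihood-ratio test, 53 with each row under 60 reads and 1 to 3 with 1 control library left out. In butyrate they numbered 3, 462, 5, 56 and 49 under the same settings other than every adjacent pair, 0 in lane 6, 9 without the richest bins and 1 with 1 butyrate library left out. With all 6 libraries they numbered 86 at a minimum of 6 reads, 44 under 40, 1296 without an upper limit, 35 with no CpG within 10 bp, 243 by the likelihood-ratio test, 293 with each row under 60, 52 in lane 6 and 85 to 95 with 1 library left out. Except for the likelihood-ratio test, which uses the same pairs and reads, these settings change how many pairs or reads enter by construction. The share called over all pairs tested was not computed for these alternatives.

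Deviations of libraries of the same replicate number had an r of -0.0113, -0.00859 and 0.00486, and those of other numbers -0.00899 to 0.0164. With the few reads of a single library, these values cannot show whether the numbers pair the samples. With the replicate number as a block the level differences were 0.756 and 1.01 points (exact sign-flip p = 0.25, the smallest possible), the ratio difference -0.00805, the mean strand difference -0.281 points and the product -1.02 squared points, and 0 members were called for a group difference. No call changed. No member was called for a group difference or for the strand by group term in any setting. The median of 8 or 9 reads per strand and group limits single pairs to large differences.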
